A study of Mus musculus with 6 samples.

Results

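The genes described here are 6 genes of the club cell, Scgb1a1, Scgb3a2, Cbr2, Aldh1a1, Hp and Aox3, measured in the lungs of Cd-treated and control mice. They were chosen by name as genes that club cells express along all airways, and each was measured by the 1 probe set that the array annotation pairs with its symbol alone, out of 22180 genes with such a probe set and 41345 probe sets in all. Club cells are the nonciliated secretory cells of the bronchial and bronchiolar epithelium. They release secretoglobins into the airway lining fluid, hold much of the lung's xenobiotic-metabolizing capacity, and serve as progenitors that renew themselves and the ciliated cells. Lung RNA came from 3 Cd-treated and 3 control male C57Bl6 mice, 1 mouse for each array (the titles call them biological replicates). Drinking water held 10 mg/L CdCl2 for Cd-treated mice and none for control mice over 20 weeks, starting when mice were 8 weeks old, and lungs were taken at the age of 28 weeks. In the study's methods airway resistance was measured under anesthesia, with inhaled methacholine, before lungs were isolated, and which mice shared a cage is not given in the sources used here. Values are log2 robust multiarray average (RMA) values from Affymetrix Mouse Gene ST arrays, so a difference of 1 is a doubling, and values of different probe sets are not read as an order of transcript levels.

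The comparison asked whether oral low-dose Cd changed the transcripts of club cells. No difference between Cd-treated and control lungs was detected for any of the 6 genes by limma, a moderated test fitted over all probe sets. Of the 6, 0 had a p under 0.05 before adjustment, none in either direction, where 2.01% of all probe sets did, 1.05% higher and 0.960% lower in Cd-treated lungs. The SE given below is the standard error of the log2 fold change, and p is not adjusted unless stated. The log2 fold changes, Cd-treated minus control, lay between -0.19 for Scgb3a2 and 0.093 for Scgb1a1, and 2 were positive and 4 negative. Their median was -0.062, against -0.018 over all genes with 1 symbol. The Cd-treated and control arrays overlapped for each of the 6 genes, while 7.00% of all probe sets had groups that did not overlap. Precision was limited by having 3 arrays in each group, and the 95% intervals give the sizes of difference that remained possible. All 6 genes were bright, each above at least 94.2% of the probe sets on every array, which does not show the cells they came from. In whole lung RNA, fewer club cells and less RNA per club cell cannot be told apart.

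**Figure D1:**
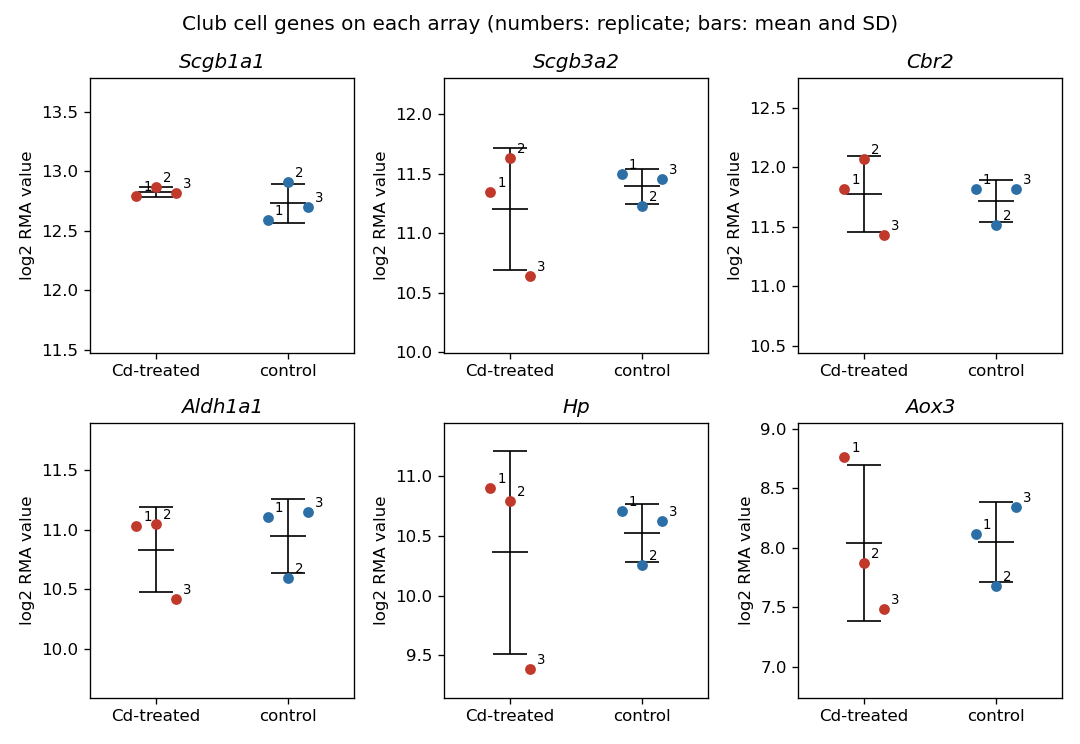
Log2 RMA values (y axis) of the 6 club cell genes on each array, Cd-treated left and control right, with the replicate number beside each point and bars for the mean and SD (n = 3 each). The groups overlap in every panel, and Cd-treated replicate 3 is the lowest array for 5 of the 6 genes.

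Promoter sequences of Cbr2, Aldh1a1 and Aox3 are shown because NK2 homeobox, FOXA and C/EBP factors are known regulators of club cell genes, and the 120 bases before each annotated start let these 3 genes be compared for their cores. Promoters matched by symbol in the RefSeq promoter table (GRCm38.p6) are given for 3 of the 6 genes, with 2 starts for Aldh1a1. None was available for Scgb1a1 and Hp, and Scgb3a2 was left out because the sequence of its chromosome is not printed here. Capitals mark matches to the motifs searched.
Cbr2, chr11:120732022-120732141, minus strand: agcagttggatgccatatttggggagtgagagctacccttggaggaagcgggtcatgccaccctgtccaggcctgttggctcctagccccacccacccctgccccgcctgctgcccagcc
Aldh1a1 upstream start, chr19:20492463-20492582, plus strand: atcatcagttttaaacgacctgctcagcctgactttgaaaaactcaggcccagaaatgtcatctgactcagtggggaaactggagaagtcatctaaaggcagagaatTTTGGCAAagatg
Aldh1a1 downstream start, chr19:20601848-20601967, plus strand: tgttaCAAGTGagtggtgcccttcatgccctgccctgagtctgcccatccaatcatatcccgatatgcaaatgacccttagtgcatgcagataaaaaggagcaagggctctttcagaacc
Aox3, chr1:58113016-58113135, plus strand: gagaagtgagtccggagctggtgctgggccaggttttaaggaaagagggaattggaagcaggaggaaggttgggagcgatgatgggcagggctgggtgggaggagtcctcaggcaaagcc
Over the 250 bases before each start, on both strands and with no overlap among the matches found, the NK2 homeobox core CAAGTG matched before the downstream start of Aldh1a1, 115 to 110 bases ahead of it, and is held by 11.6% of 32851 promoters. The C/EBP core TTGCNNAA matched before the upstream start of Aldh1a1 (9.56% of promoters). The FOXA core TGTTTNC matched before Cbr2, 229 to 223 bases ahead of the start and outside the stretch printed (17.8% of promoters). The TATA box TATAAA matched in none of the 4 windows (12.4% of promoters), and Aox3 held none of the motifs searched. No motif was shared by the 3 genes.

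Scgb1a1, the secretoglobin also known as uteroglobin or CC10 and the defining secretory protein of the club cell, had values of 12.79, 12.87 and 12.82 in Cd-treated lungs and 12.59, 12.91 and 12.70 in control lungs. The Cd-treated values lay within the range of the control values. The log2 fold change was 0.093 (SE 0.18, unadjusted limma p of 0.622), with a 95% interval from -0.33 to 0.52, which is 0.794 to 1.43 as a fold. Scgb1a1 varied least of the 6 genes, with a range of 0.32 over the arrays, against a median range of 0.70 over the 87 genes with a mean above 10. It was also above at least 99.96% of the probe sets on every array. The part of so bright a signal in the small range was not tested.

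Scgb3a2, a second secretoglobin of club cells, had values of 11.35, 11.63 and 10.64 in Cd-treated lungs and 11.50, 11.23 and 11.46 in control lungs. Cd-treated replicate 2 was the highest of all arrays and Cd-treated replicate 3 the lowest, 0.59 below the next. The spread was 0.51 in Cd-treated lungs and 0.15 in control lungs (SD, n = 3 each). As a log2 fold change the difference was -0.19 (SE 0.28, unadjusted limma p of 0.528), with a 95% interval from -0.86 to 0.48.

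Cbr2 encodes the carbonyl reductase of lung, which reduces carbonyl compounds with NADPH. It read 11.82, 12.07 and 11.43 in Cd-treated lungs and 11.82, 11.51 and 11.82 in control lungs. Cd-treated replicate 2 was again the highest array and Cd-treated replicate 3 the lowest, here by only 0.081. The log2 fold change was 0.054 (SE 0.23, unadjusted limma p of 0.819), with a 95% interval from -0.49 to 0.59.

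Aldh1a1 encodes a cytosolic aldehyde dehydrogenase that oxidizes retinaldehyde to retinoic acid and detoxifies other aldehydes. Its values were 11.03, 11.05 and 10.42 in Cd-treated lungs and 11.11, 10.59 and 11.15 in control lungs. In each group 1 array was low, Cd-treated replicate 3 and control replicate 2, and the other 4 arrays read within a narrow band. The log2 fold change was -0.12 (SE 0.26, unadjusted limma p of 0.673), with a 95% interval from -0.74 to 0.51.

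Hp encodes haptoglobin, the acute phase protein that binds free hemoglobin, made mainly in liver and also in fat and in airway epithelium. Values were 10.91, 10.80 and 9.38 in Cd-treated lungs and 10.71, 10.25 and 10.62 in control lungs. Cd-treated replicates 1 and 2 were above every control array, while Cd-treated replicate 3 was 0.87 below the lowest of the others. Hp had the widest range of the 6 genes, 1.53, and an SD of 0.85 in Cd-treated lungs and 0.24 in control lungs (n = 3 each). Its log2 fold change was -0.17 (SE 0.42, unadjusted limma p of 0.703), and the 95% interval, 0.45 to 1.77 as a fold, was the only 1 of the 6 to reach below a halving.

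Hp is also a transcript of fat cells and neutrophils, so their markers were read on the same arrays. The mean over 7 fat cell genes was 5.15, 5.76 and 5.76 in Cd-treated lungs and 6.47, 5.49 and 5.83 in control lungs, and that over 10 neutrophil genes was 5.0, 6.06 and 5.44 in Cd-treated lungs and 5.96, 5.19 and 5.41 in control lungs. Cd-treated replicate 3, where Hp was lowest, was lowest for none of the genes of either list. The part of these cells in the Hp values was not tested.

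Aox3 encodes an aldehyde oxidase, an enzyme with a molybdenum cofactor that oxidizes aldehydes and nitrogen heterocycles. It read 8.76, 7.87 and 7.49 in Cd-treated lungs and 8.12, 7.68 and 8.34 in control lungs. The Cd-treated arrays held both the highest and the lowest value, on either side of all control arrays. The mean was 8.04 ± 0.65 in Cd-treated lungs and 8.05 ± 0.33 in control lungs (SD, n = 3 each), with a log2 fold change of -0.0074 (SE 0.36, unadjusted limma p of 0.984) and a 95% interval from -0.85 to 0.84.

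For all 6 genes the 95% interval ended below a doubling, and for 5 of them it stayed above a halving. After adjustment over the whole array the limma p was 0.992 or higher for each gene, and 0.00% of all probe sets had an adjusted p under 0.05. Exact permutation tests of the 6 genes, two-sided, gave p from 0.5 to 1, where the smallest p that 3 against 3 arrays can give is 0.1.

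Cd-treated replicate 3 carried much of the spread. It was the lowest array for 5 of the 6 genes, all but Scgb1a1, and the mean deviation of the 6 genes from their own means was -0.50 on it, while Cd-treated replicates 1 and 2 had 0.24 and 0.18 and control replicates had 0.11, -0.17 and 0.15. The same array was lowest for 26.2% of all genes with 1 symbol and for 58.6% of the 531 genes with a mean above 8, so that bright genes in general were often lowest on it. Leaving it out turned Scgb3a2, Aldh1a1, Hp and Aox3 positive, and all 6 log2 fold changes were then positive, from 0.091 to 0.32. None of the 6 genes passed without it, and the smallest limma p over the 6 genes and the 6 left-out arrays was 0.216, for Hp without Cd-treated replicate 3. Control replicate 3 was the mirror image, the highest array for 67.2% of the 531 bright genes, with a median deviation of 0.40 over them, where Cd-treated replicate 3 had -0.39. It also had skeletal muscle genes at a mean of 8.20 (8 genes), where no other array was above 5.27, and the part of either array's brightness in the values of the 6 genes was not tested. Control replicate 3 was the highest array for Aldh1a1 only, and without it 3 of the 6 log2 fold changes were positive and 3 negative, from -0.16 to 0.14, with Aox3 turned to the positive side.

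**Figure D2:**
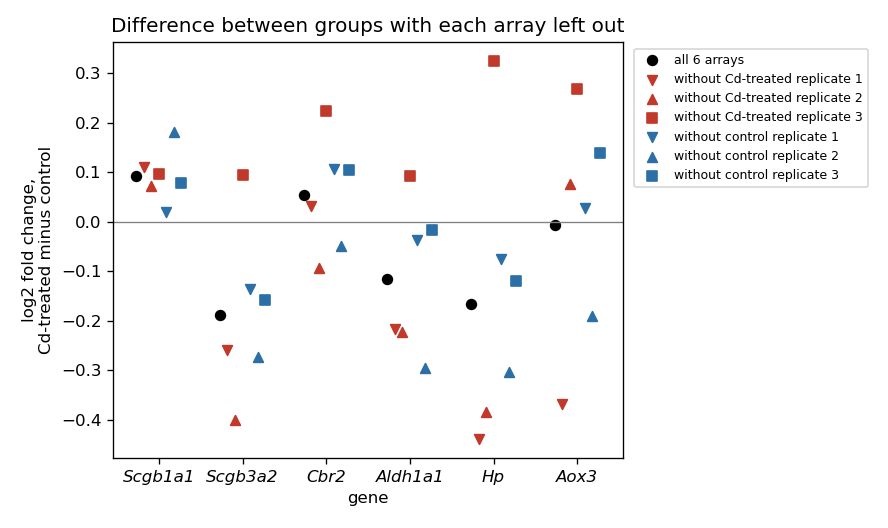
Log2 fold change, Cd-treated minus control (y axis), of each club cell gene with all 6 arrays (black) and with each Cd-treated array (red) or control array (blue) left out. Without Cd-treated replicate 3 (red squares) all 6 values are positive, while 4 of the 6 are negative without Cd-treated replicate 1 and likewise without replicate 2.

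Further genes of the club cell were taken from lists chosen by their known expression. Of 14 xenobiotic-metabolizing genes 12 were measured, of which 1 was lower, none was higher and 11 did not pass, at a limma p under 0.05 (over all genes with 1 symbol 1.19% passed, 0.564% higher and 0.622% lower). Their median log2 fold change was -0.23, and it was -0.0066 without Cd-treated replicate 3. The gene that passed was Sult1d1, a sulfotransferase, at 5.69, 6.58 and 5.27 in Cd-treated lungs and 6.54, 6.85 and 6.71 in control lungs (log2 fold change -0.85, SE 0.34, unadjusted limma p of 0.0408). The arrays overlapped at Cd-treated replicate 2. Without Cd-treated replicate 2 the limma p was 0.00304, and without any other single array the call was lost. Cyp2f2, the cytochrome P450 that bioactivates naphthalene in mouse club cells, read 11.20, 11.25 and 10.22 in Cd-treated lungs and 11.10, 11.03 and 11.00 in control lungs. Its log2 fold change was -0.16 (SE 0.30, unadjusted limma p of 0.622), and only Cd-treated replicate 3 stood away from the other arrays.

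Of 10 other club cell genes, which include surface, matrix and transport proteins, all were measured and none passed, with a median log2 fold change of -0.21 and the smallest limma p at 0.0908, for Upk3a (0.36). Several had 1 array, Cd-treated replicate 3, far below the rest. Chad, which encodes the matrix protein chondroadherin, read 7.26, 7.01 and 4.96 in Cd-treated lungs and 7.41, 7.37 and 7.26 in control lungs. Lypd2 read 8.75, 8.73 and 6.81 in Cd-treated lungs and 8.79, 8.89 and 8.69 in control lungs. Gabrp, a GABA receptor subunit, read 8.76, 8.83 and 6.95 in Cd-treated lungs and 8.64, 8.53 and 8.62 in control lungs. On Cd-treated replicate 3 these 3 genes were 2.05, 1.88 and 1.59 below the next lowest array, and on the other 5 arrays each was within a narrow band. Over both lists Cd-treated replicate 3 was lowest for 17 of 22 genes. It was more than 1 below the next array for 6 of the 22 (27.3%) and 0 of the 6 genes described above. That held for 0.284% of all genes and 3.20% of the genes with a mean above 8. With a gap of 0.5 the 2 sets were nearer, at 9 of the 22 (40.9%) and 2 of the 6 (33.3%). The smaller gap held for 5 of 11 ciliated cell genes (45.5%), 3.49% of all genes and 15.8% of those with a mean above 8. Without that array the median of the 10 other club cell genes was 0.13.

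**Figure D3:**
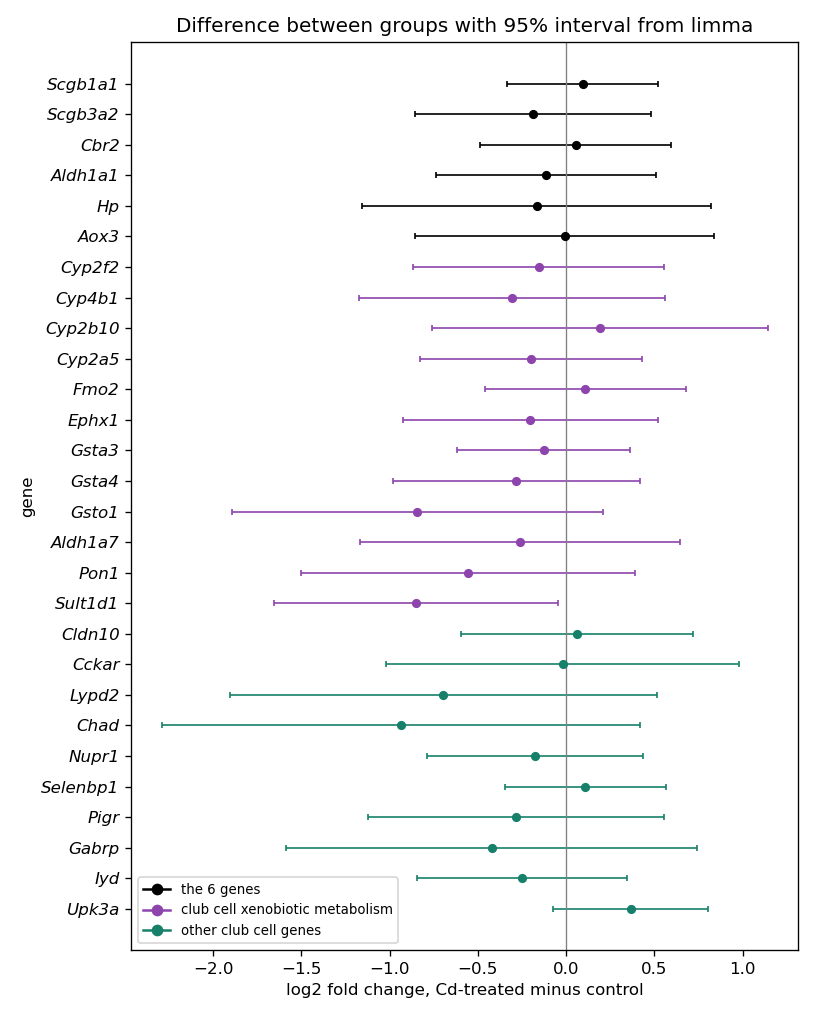
Log2 fold change, Cd-treated minus control (x axis), with its 95% interval from limma, for the 6 club cell genes (black), 12 club cell genes of xenobiotic metabolism (purple) and 10 other club cell genes (green). The interval includes 0 for every gene but Sult1d1, and those of Chad and Lypd2 are among the widest.

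Markers of other airway cells were read on the same arrays. The mean over 11 genes of ciliated cells was 6.87, 6.31 and 5.67 in Cd-treated lungs and 6.28, 6.49 and 6.30 in control lungs, so that Cd-treated replicate 3 was again lowest, for 10 of the 11 genes. The mean over 8 secretory genes of large airways was 5.68, 7.97 and 4.84 in Cd-treated lungs and 8.07, 8.01 and 8.07 in control lungs. In this mean Cd-treated replicates 1 and 3 were both low. The mean over the 6 club cell genes was 11.11, 11.05 and 10.36 in Cd-treated lungs and 10.97, 10.70 and 11.01 in control lungs. Cd-treated replicate 1 was the highest in the club cell mean, though only 2 of the 6 genes, Hp and Aox3, were highest on it. Msln, 1 of the 8, was not low on Cd-treated replicate 3 (5.67, with a mean of 5.60 over the arrays). The median log2 fold change over the 8 large airway genes was -1.84. Their list was chosen with earlier results of these data known, so its count is description only. At an unadjusted limma p under 0.05, 5 of the 8 were lower (0.622% of all genes were). They were the secreted antimicrobial and lipid-binding proteins Bpifb1 (-3.05) and Bpifa1 (-3.57), Ltf (-1.12), which encodes lactoferrin, the lectin Reg3g (-2.31) and Scgb3a1. Without Cd-treated replicate 3 the call was kept by Bpifb1 (-2.09) and Ltf (-0.74) and lost by Bpifa1 (-2.26), Reg3g (-1.71) and Scgb3a1. Bpifa1 and Reg3g also lost it without any other single array except Cd-treated replicate 2, where they were at -5.31 and -3.50, Bpifb1 lost it without Cd-treated replicate 1 (-2.81), and Ltf lost it without control replicate 2 (-1.08). Without Cd-treated replicate 2 Bpifb1 was at -4.25 and Ltf at -1.50. With all arrays kept, each of the 5 lost the call when the arrays were weighted, with Bpifb1 at -1.04 and Ltf at -0.41. Each of the 5 also lost it when the test was not moderated, so the calls of Bpifb1 and Ltf were not stable either. Of ciliated cell genes none passed, and Mlf1 had the smallest limma p, 0.253. Of 16 regulators of airway secretory genes, among them Nkx2-1, Foxa1 and Foxa2, none passed, and the smallest limma p was 0.228, for Cebpb (-0.40). Their median log2 fold change was -0.21, and 14 of the 16 were lowest on Cd-treated replicate 3.

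**Figure D4:**
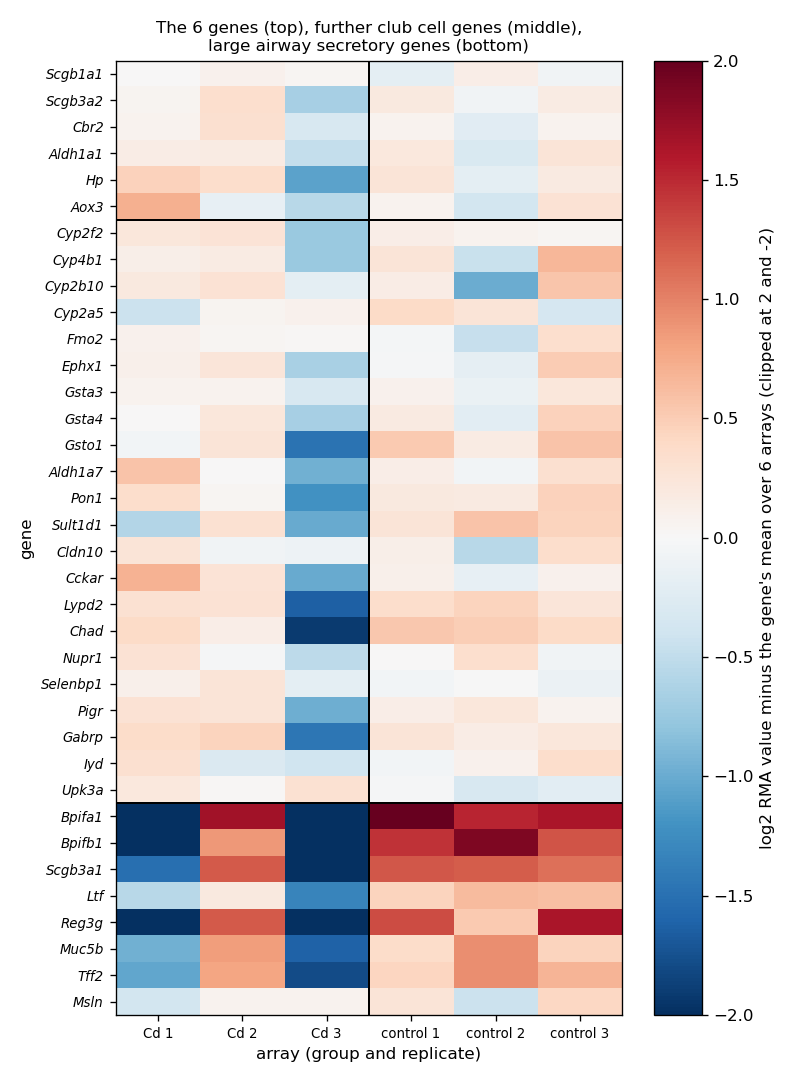
Log2 RMA value minus the mean of the gene over the 6 arrays (color, clipped at 2 and -2) for the 6 club cell genes (top), 22 further club cell genes (middle) and 8 large airway secretory genes (bottom), with Cd-treated arrays left and control arrays right. Large airway genes are low on Cd-treated replicates 1 and 3, except Msln on replicate 3. Club cell genes are low mainly on Cd-treated replicate 3, the lowest array for 5 of the top 6 and 17 of the middle 22. Scgb1a1, Cyp2b10, Cyp2a5, Fmo2, Cldn10 and Upk3a are lowest on another array, and Sult1d1 is low on Cd-treated replicate 1 too.

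Secretoglobins are small secreted proteins, and Scgb3a1, whose transcript marks secretory cells of larger airways, gives a comparison within the family. It read 8.38, 11.11 and 6.62 in Cd-treated lungs and 11.13, 11.11 and 10.98 in control lungs (log2 fold change -2.37, SE 1.00, unadjusted limma p of 0.0489), and Cd-treated replicate 2 lay among the control arrays. Its log2 fold change was -3.58 with Cd-treated replicate 2 left out and -1.33 with Cd-treated replicate 3 left out, and the call was lost without any array other than Cd-treated replicate 2. The difference between Scgb3a1 and each of the 6 genes was taken on every array, and these 6 comparisons were chosen after the values were seen. Scgb3a1 minus Scgb3a2 was -2.97, -0.52 and -4.02 in Cd-treated lungs and -0.37, -0.12 and -0.47 in control lungs. Scgb3a1 minus Scgb1a1 was -4.41, -1.76 and -6.20 in Cd-treated lungs and -1.46, -1.80 and -1.72 in control lungs, with an overlap at Cd-treated replicate 2. The log2 fold change of Scgb3a1 minus that of each gene lay between -2.46 and -2.18, with exact permutation p from 0.1 to 0.3, two-sided, and adjusted p over the 6 comparisons of 0.2 to 0.3. With 3 against 3 arrays p cannot go below 0.1, so these tests could not have passed 0.05. The groups did not overlap for 3 of the 6 differences, those with Scgb3a2, Cbr2 and Hp. In each, Cd-treated replicate 2 lay only just below control replicate 3 (-0.96 and -0.84 for Cbr2, 0.31 and 0.36 for Hp). All 6 differences hold the same Scgb3a1 values, so they are not separate observations. Groups did not overlap for 7.00% of single probe sets, and the share over differences between other genes was not taken. Of 20 secretoglobin genes measured, 1 was lower, none was higher and 19 did not pass (over all genes with 1 symbol 0.622% were lower and 0.564% higher). Probe sets of the Scgb1b and Scgb2b genes, a cluster of near-identical copies, may share transcripts among them.

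Enzymes related to the 6 genes were described in the same way. In the retinoid pathway 20 genes were measured, of which 1 was lower, none was higher and 19 did not pass. Over all genes with 1 symbol 0.622% were lower and 0.564% higher. The gene was Aldh1a2, a retinaldehyde dehydrogenase best known from mesenchyme and mesothelium, at 4.20, 4.61 and 4.37 in Cd-treated lungs and 5.10, 5.06 and 5.65 in control lungs. Every Cd-treated array was below every control array (log2 fold change -0.88, SE 0.24, unadjusted limma p of 0.00736, adjusted p of 0.992), and it passed with each array left out in turn. Its signal was low, above only 28.5% of the probe sets on the array where that share was smallest, and the filter on low values left it out. Aldh1a1, its far brighter paralog, did not pass. Of 10 genes of carbonyl reduction none passed, with the smallest p for Hsd11b1, which reactivates glucocorticoids (log2 fold change -0.47, unadjusted limma p of 0.147). Of 11 genes of aldehyde oxidases and their cofactor none passed either, and Aox2 had the smallest p (log2 fold change 0.38, unadjusted limma p of 0.141). Among 19 genes of haptoglobin and the acute phase 1 was lower, none was higher and 18 did not pass. That gene was Socs3, the feedback inhibitor of cytokine signaling through Stat3 (log2 fold change -0.72, SE 0.29, unadjusted limma p of 0.0402), whose call was lost without any 1 of 4 arrays, replicates 2 and 3 of each group (log2 fold changes -0.76 and -0.54 for the Cd-treated arrays left out, -0.59 for either control array) and with its 2 probe sets averaged (-0.43, unadjusted limma p of 0.0921). Median log2 fold changes were -0.073, -0.10, -0.089 and -0.16 over the retinoid, carbonyl reduction, aldehyde oxidase and haptoglobin lists, the 6 genes included.

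The genes that ran most like the mean of the 6 over the 6 arrays were found by the root mean square difference between deviations from each gene's own mean. They were Rps28 (0.039), Gsr (0.047), Ldhb (0.054), Ncaph2 (0.062), Casp6 (0.063) and Kdm3b (0.067), out of 22174 genes, for which the median was 0.34. A gene with no deviation at all would have 0.26. Rps28, a protein of the small ribosomal subunit, read 10.96, 10.88 and 10.19 in Cd-treated lungs and 10.91, 10.52 and 10.90 in control lungs, and Gsr, glutathione reductase, read 6.92, 6.83 and 6.24 in Cd-treated lungs and 6.90, 6.58 and 6.88 in control lungs. Set against the mean of the other 5 genes, the difference was 0.11 for Aldh1a1, 0.15 for Cbr2 and 0.16 for Scgb3a2, and 0.31 for Aox3, 0.32 for Hp and 0.38 for Scgb1a1. The first 3 genes ran closer to the others than the last 3 did. These differences describe 6 arrays and carry no test.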

How the data were processed

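Lung RNA (mirVana extraction, NuGEN amplification) was hybridized to 6 arrays. The authors turned the scans into the deposited log2 values by RMA in the R package oligo (background correction, quantile normalization, summary per probe set). No version of RMA or limma stands in the submitters' processing notes, and no genome build is given in the sources used here. Array medians lay between 4.86 and 5.12, so the deposited values do not have 1 common distribution, and arrays carry no read depth. Gene symbols came from the array annotation, and no column was left out.

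The difference between groups was tested in R 4.3.3 with limma 3.58.1, with the group as the only term, over all 41345 probe sets with Benjamini-Hochberg adjustment. The prior added 3.06 degrees of freedom. Exact permutation tests used scipy 1.17.1. Steps were tested on simulated arrays.

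The 6 genes and the lists were chosen with earlier results of these data known. Named beside the 6 were list genes at an unadjusted p under 0.05, otherwise that with the smallest p, and the 6 genes nearest in pattern. Lists of club cell genes, related enzymes, regulators and cell type markers were written from general knowledge, and 1 list may share genes with another. Chad, Lypd2, Gabrp, Cyp2f2, the brightness limits of 8 and 10 and the comparison with Scgb3a1 were chosen after their values were seen. Over cell type lists, 5 of 8 large airway and 4 of 8 heart muscle genes were lower at an unadjusted limma p under 0.05. The heart muscle genes were Sln, Nppa, Myl7 and Myl4. Of 10 neutrophil genes 1 (Ly6g) was higher. The shares over all genes with 1 symbol were 0.622% lower and 0.564% higher. Each of these list genes had an adjusted limma p of 0.992. None passed for ciliated, goblet, basal, alveolar type 1 and 2, fat, skeletal muscle, squamous and endothelial cells. Their smallest p values were for Mlf1, Agr2, Krt15, Pdpn, Sftpd, Fabp4, Ckm, Sprr3 and Pecam1, in that order. Alternatives left out each array, weighted the arrays, normalized again (quantile or cyclic loess), left out low probe sets (mean below the median), averaged a gene's probe sets, added a replicate block, or changed the test (robust trended prior; Student's test of the study's methods).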

Additional observations from a re-analysis of the deposited data

How the results depend on the processing

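No alternative with equal array weights made any of the 6 genes pass. With array weights 1 of the 6, Scgb1a1, passed (log2 fold change 0.24, unadjusted limma p of 0.0434), as did 10119 probe sets at an unadjusted and 903 at an adjusted p under 0.05, against 831 and 0 with equal weights. The weights were 5.93 for control replicate 1 and 6.41 for Cd-treated replicate 2, and 0.23 to 0.60 for the other arrays, so that 1 array per group decided that fit. At an unadjusted p the count was 300 with the filter on low values, which tested fewer probe sets, and 607 to 1650 with each array left out, where the 2 highest counts came without control replicate 2 and, at 1381, without Cd-treated replicate 1. With the replicate block it was 449. Same-numbered arrays deviated from their group means with correlations of -0.49, 0.071 and -0.51 over all probe sets. The fit with the group as the only term did not pair them. Whether same-numbered arrays shared a cage or a processing step is not given, and 3 arrays per group cannot decide it.

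The signs of the fold changes of the 6 genes turned in several settings. With cyclic loess Aldh1a1 was at 0.0017 and Aox3 at 0.25. With quantile normalization again Scgb1a1 was at -0.0016, Cbr2 at -0.039 and Aox3 at 0.12. With array weights Hp was at 0.049 and Scgb3a2 at 0.079. Leaving out each array gave ranges from -0.29 to 0.091 for Aldh1a1, -0.37 to 0.27 for Aox3, -0.093 to 0.22 for Cbr2, -0.44 to 0.32 for Hp and -0.40 to 0.095 for Scgb3a2, and -0.42 to 0.13 for the median of the other club cell genes. The cause of these turns was not tested. The median of the xenobiotic-metabolizing club cell genes was -0.037 with cyclic loess, -0.067 with array weights and from -0.36 to -0.0066 with each array left out. Of 13 list genes that passed, 11 lost the call under at least 1 alternative. Sln kept it under all 14 and Aldh1a2 under the 13 that could be run, since the filter on low values removed it, as it did Ly6g.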
